A study of Mus musculus with 8 samples.

Results

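The genes of the m6A writer complex were followed in C2C12 cells, an immortalised line of mouse myoblasts, as the cells left proliferation and differentiated. The set was fixed by name as 9 genes: *Mettl3*, *Mettl14*, *Wtap*, *Virma*, *Zc3h13*, *Cbll1*, *Rbm15*, *Rbm15b* and *Mettl16*. All 9 were found by Entrez identifier among the 27179 genes of the expression table, and all 9 passed the filter on low values that left 11406 genes for testing. The growth medium samples (GM) were C2C12 myoblasts on collagen-coated dishes at 50% confluence in high glucose DMEM with 10% fetal bovine serum. The differentiation samples (3d DM) were the same line, grown past 90% confluence and then held for 3 days in DMEM with 2% horse serum. MeRIP-seq, in which an antibody against m6A pulls down modified fragments of poly(A) RNA, gave 2 immunoprecipitated (IP) libraries per state, and RNA-seq of the RNA before precipitation gave 2 input libraries per state. The labels do not say whether the replicates came from separate cultures, so the tests measure the spread between these libraries, which may be technical. For the deposited expression values this spread was pooled over genes of similar level.

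N6-methyladenosine is the most common internal modification of mRNA. It is placed during transcription by a large nuclear complex. METTL3 holds the active site and binds the methyl donor S-adenosylmethionine, and METTL14 is its partner, which has no activity of its own and shapes the RNA-binding groove. WTAP brings this heterodimer to nuclear speckles and joins it to VIRMA, ZC3H13 and CBLL1 (also called HAKAI), while RBM15 and RBM15B bind RNA and bring the complex to chosen sites. METTL16 works apart from the complex, on the U6 small nuclear RNA and on hairpins of the *Mat2a* mRNA, which codes for the enzyme that makes S-adenosylmethionine. In muscle, myoblasts divide, leave the cell cycle and fuse to myotubes, and the m6A complex is one of the regulators studied at that transition.

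The cell states were as labelled. Of the fixed markers, all 5 of proliferating myoblasts were higher in GM and all 6 of myotubes were higher in 3d DM (limma, Benjamini-Hochberg adjusted p under 0.05). The summed normalised values of the proliferation markers were 13289 and 14812 in GM against 1752 and 3020 in 3d DM. Those of the myotube markers were 4929 and 1115 in GM against 88846 and 127255 in 3d DM, so that GM replicate 1 carried more muscle RNA than GM replicate 2, and no marker was at 0 in all libraries. Of the 3 reserve cell markers, 1, *Myf5*, was called, and it was higher in GM. *Pax7* had 55.7 and 50.2 in GM against 51.5 and 77.8 in 3d DM, with overlapping states and a log2 difference of -0.26 ± 0.56. *Cd34* had 474 and 265 in GM against 232 and 219 in 3d DM and was not called. The summed values, to which *Pax7* added little, ranged from 670.4 to 927 in GM and from 342 to 418 in 3d DM. Of the 2 markers of the line, *Myod1* had 1713 and 1129 in GM against 1016 and 1645 in 3d DM. *Des*, the muscle intermediate filament desmin, had 12764 and 5945 against 21225 and 23528 and was higher in 3d DM (log2 difference -1.36 ± 0.40, adjusted p = 0.0061, limma). In bulk RNA, fewer cells of a type and less RNA per cell cannot be told apart, and the part of cell makeup in the results below was not tested.

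The writers differed in whether an m6A peak was called on their own transcripts. *Mettl3* and *Mettl14*, the catalytic pair, had no line in any of the 4 peak lists, which the authors called for each IP library against its own input. The other 7 genes each had a peak in all 4 lists. Of the 11253 tested genes with a symbol, 42.6% had a peak in all 4 lists and 23.8% in none, set beside 7 of 9 and 2 of 9 writers. Among the 10659 of these genes with a coding transcript in GENCODE M21, 4794 had a peak in all 4 lists and 2092 in none. The peak lists give no read numbers, and a peak that is not listed is one that was not called, which is not the same as an unmethylated RNA. By mean input level, *Mettl3* and *Mettl14* stood at percentiles 31.2 and 35.6 of all tested genes. *Cbll1*, which had peaks, stood at 32.2. The part of RNA level in the calling of peaks was not tested.

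The sequence of the m6A consensus was present in both kinds of transcript. GGACT, its most favoured form, was searched on the transcript strand of 1 coding transcript per gene, the one with the longest coding sequence in GENCODE M21, with the bases read from GRCm38 (mm10). Each window below was set around 1 chosen GGACT. For the first 4 genes it is the one nearest the end of the coding sequence within the part of the mRNA under a peak in all 4 lists. For *Mettl3* and *Mettl14*, where no peak was called, it is the one nearest that end in the coding sequence as a whole. Only a GGACT with 20 coding bases on each side in the same exon could be chosen. Each is shown 5′ to 3′ on the RNA strand with GGACT in capitals.
Wtap: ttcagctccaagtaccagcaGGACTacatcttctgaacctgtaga
Zc3h13: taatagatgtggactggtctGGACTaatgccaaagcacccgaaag
Rbm15: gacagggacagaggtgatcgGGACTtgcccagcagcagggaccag
Rbm15b: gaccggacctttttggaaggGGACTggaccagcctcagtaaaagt
Mettl3: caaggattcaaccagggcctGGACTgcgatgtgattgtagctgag
Mettl14: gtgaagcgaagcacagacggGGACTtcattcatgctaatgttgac
The *Wtap* window lies at chr17:12967877-12967921 on the minus strand, in coding exon 8. The *Zc3h13* window lies at chr14:75337382-75337426 on the plus strand, in exon 17, and holds a further ggact in its lower-case part. The *Rbm15* window is chr3:107331170-107331214 and the *Rbm15b* window chr9:106885309-106885353, both on the minus strand and both in exon 1, which in each gene carries nearly all or all of the coding sequence. The *Mettl3* window is chr14:52296516-52296560 in exon 9 and the *Mettl14* window chr3:123371411-123371455 in exon 10, both on the minus strand.

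The shared parts of the writers' peaks were rich in this sequence. Over the 6 members whose shared part lies on the transcript used, GGACT stood 10 times in 3.63 kb, or 2.76 per kb, and 31 times in the 32.7 kb of the 9 transcripts outside, or 0.947 per kb. The shorter GGAC, which each GGACT contains, stood at 10.7 per kb in the shared parts and at 4.12 per kb outside. In the shared parts of all 5756 loci of the series with bases under a peak in all 4 lists, GGACT stood at 1.48 per kb and was held by 36.4% of them, and GGAC stood at 5.65 per kb and was held by 69.6%. The count was uneven among the members. *Zc3h13* held 5 GGACT, *Rbm15b* 3, and *Wtap* and *Rbm15* 1 each, while *Virma* and *Cbll1* held none in their shared parts although they had 7 and 5 on the whole transcript. *Mettl3* had 4 GGACT in 2.02 kb (1.98 per kb) and *Mettl14* had 3 in 2.74 kb (1.09 per kb), against 1.09 per kb over the transcripts of 10659 tested genes. GGAC stood at 6.91 per kb in *Mettl3* and at 3.65 per kb in *Mettl14*, against 4.2 over the same transcripts. A match of letters is a description and does not mark a methylated base.

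In each of the 7 genes with peaks, at least 1 list had a peak that reached into the 3′ UTR. In *Wtap*, *Cbll1* and *Rbm15b* every list but that of 3d DM replicate 2 did so, and in *Rbm15* both GM lists did. The part under a peak in all 4 lists was wholly coding in all 6 members where it lies on the transcript used: 301 bases in *Wtap*, 334 in *Virma*, 1470 in *Zc3h13*, 544 in *Cbll1*, 301 in *Rbm15* and 678 in *Rbm15b*. In *Wtap*, *Cbll1* and *Rbm15b* the list of 3d DM replicate 2, the shortest of the 4, alone kept the shared part out of the 3′ UTR. In *Wtap* and *Cbll1* the shared part was all that this list had under peaks on the gene. The part of the shorter list in this placement was not tested. In *Wtap* and *Cbll1* the middle base of the shared part lay 370 and 384 bases before the end of the coding sequence. In *Rbm15b* and *Zc3h13* the middle base lay 814 and 1924 bases before that end. In *Virma* the shared part lay far upstream, from 4866 to 3702 bases before the end. In *Rbm15* it was in separate pieces. The upstream piece began 1083 bases before the end, and the downstream piece ran from 275 to 125 bases before it. In *Wtap*, *Cbll1*, *Rbm15* and *Rbm15b* the shared part was inside 1 exon of 1256, 3379, 3459 and 6511 bases. In *Zc3h13* it was spread over several exons, and the exon with the largest share of it, of 513 bases, held 26.4%. The longest stretch of coding sequence within 1 exon was 405 bases in *Mettl3* and 302 in *Mettl14*, the lowest of the 9. In the other 7 it ranged from 581 in *Wtap* to 2866 in *Rbm15*. Over the tested genes the median of this length was 356 bases in the 4794 with a peak in all 4 lists and 223 bases in the 2092 with none. The peak of *Mettl16* was the exception in place: its shared part of 91 bases lay outside the coding transcript used here, at the 3′ side of the gene.

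**Figure D1:**
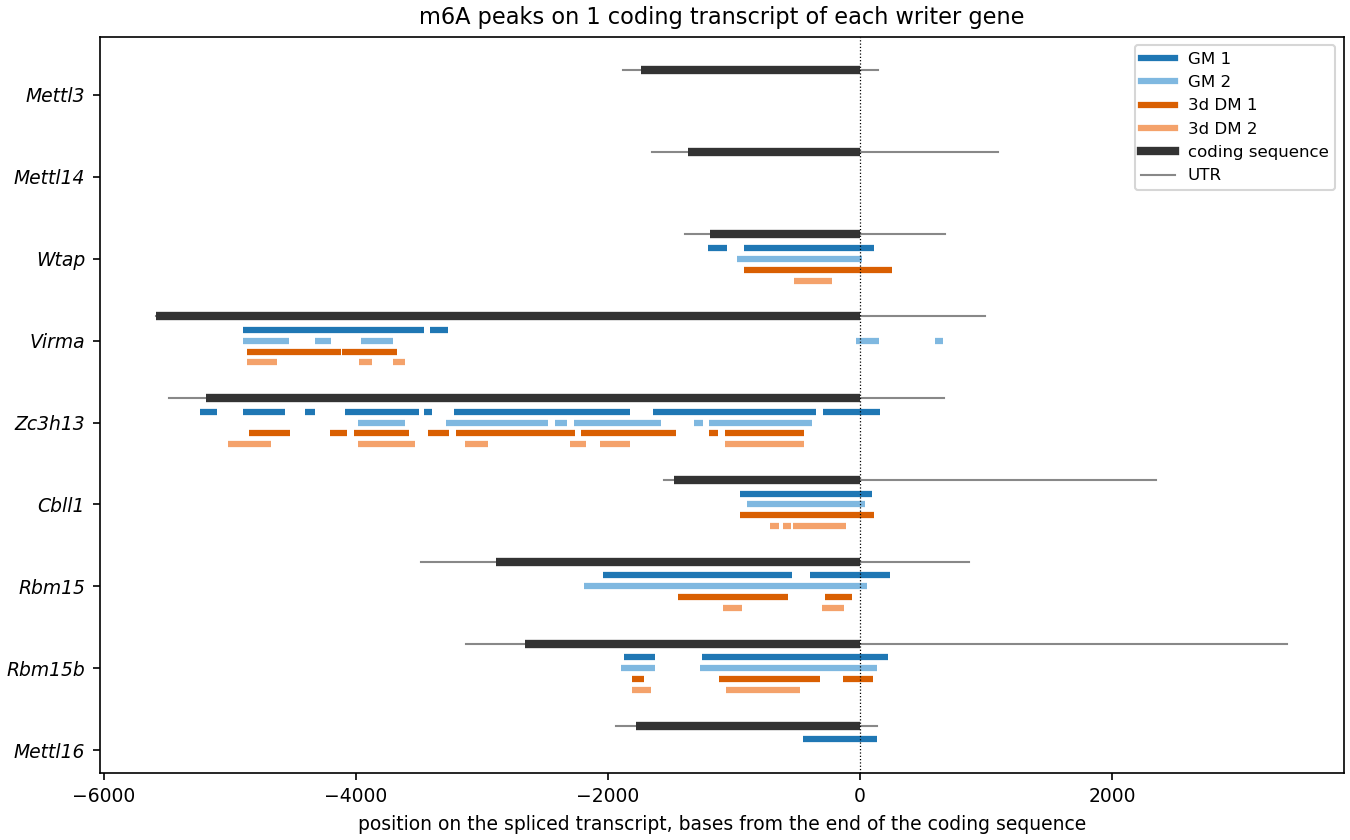
m6A peaks of the 4 IP libraries (coloured bars) on the spliced coding transcript of each writer gene (thick line, coding sequence, and thin line, UTR), in bases from the end of the coding sequence. *Mettl3* and *Mettl14* have no bar, the bars of *Rbm15* and *Rbm15b* are longer in both GM libraries, and for *Mettl16* only the GM replicate 1 peak reaches the transcript drawn.

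The number of peaks on the writer genes did not separate the states. Distinct peaks, made by merging lines of a gene that share at least 1 bp, summed over the 9 genes to 18 and 18 in GM against 19 and 16 in 3d DM (two-sided exact permutation p = 1, where 2 libraries against 2 cannot give a p under 0.33). *Zc3h13* had the most, with 8 and 6 peaks in GM against 8 and 6 in 3d DM. *Virma* had 1 and 5 in GM against 2 and 3 in 3d DM. *Wtap* had 3 and 2 in GM against 2 and 1 in 3d DM, while *Cbll1* and *Mettl16* had 1 in every library. *Rbm15* had 2 and 1 against 2 and 2, and *Rbm15b* 2 and 2 against 3 and 2. Placed on the genome, these peaks made 17 loci, of which 9 were in all 4 lists, 2 in 3 lists and 6 in 1 list. No locus was in both lists of one state and in neither of the other. The loci of 1 list were a 5′ locus of *Wtap* and 3 loci of *Zc3h13*, each in GM replicate 1, and 2 loci at the 3′ end of *Virma* in GM replicate 2.

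The length of mRNA under peaks had a higher mean in GM in all 7 genes with peaks, and the states did not overlap in 3 of them. In *Rbm15*, 2129 and 2246 exonic bases were under a peak in GM, against 1081 and 331 in 3d DM. In *Rbm15b* the peaks covered 1718 and 1675 bases in GM against 1138 and 737 in 3d DM. *Mettl16* had 858 and 181 bases in GM against 151 and 121 in 3d DM. In these 3 genes both GM libraries were above both 3d DM libraries (two-sided exact permutation p = 0.33 for each), as they were in 28.5% of the 4795 tested genes with a peak in all 4 lists. The GM mean of *Rbm15* was 2188 ± 82.7 bases against 706 ± 530.3 in 3d DM (SD, n = 2), and that of *Rbm15b* was 1697 ± 30.4 against 938 ± 284. In the other 4 genes the states overlapped. *Wtap* had 1637 and 1205 bases in GM against 1458 and 301 in 3d DM, *Virma* 1577 and 992 against 1187 and 433, *Zc3h13* 4329 and 2847 against 3460 and 1978, and *Cbll1* 1041 and 932 against 1067 and 544. The lowest value was that of 3d DM replicate 2 in all 7 genes. Its list was the shortest over all genes too, with 3370615 exonic bases under peaks against 4629677 to 5592831 in the other 3, and the part of this shorter list in the differences was not tested.

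No difference in the strength of m6A enrichment was called at these peaks. The test called no locus of the whole series, so it cannot show that the strengths were equal. The fold enrichment, the ratio of IP over input that the authors' peak caller gave, could be compared at the 9 loci of the writers with a peak in all 4 lists. Each library gave the fold of its line with the lowest p-value within the locus. The 4 folds of a locus can therefore come from different parts of it. At *Rbm15*, 1 long peak of GM replicate 2 joined 2 separate peaks in each other library. The *Virma* locus and the 3′ locus of *Zc3h13* also held separate peaks within a library. With limma on log2 fold enrichment over the 6055 such loci of the series, 0 of 9 were called at an adjusted p of 0.05 (0% of all loci, 0 loci of 6055), and 0 of the 9 and 211 of the 6055 (3.48%) had an unadjusted p under 0.05. By the mean of these folds, the strongest enrichment among the 9 loci was at *Rbm15* and at the 3′ locus of *Rbm15b*. The highest fold of any single line was at *Wtap*, with 22.2 in 3d DM replicate 1. The highest single lines at the 3′ locus of *Rbm15b* and at *Rbm15* had 15 and 12.5, both in GM replicate 1. At *Rbm15* (chr3:107326050-107332385) the fold was 12.5 and 10.6 in GM against 7.05 and 10.4 in 3d DM. At the 3′ locus of *Rbm15b* (chr9:106884083-106885577) it was 10.8 and 10.2 in GM against 9.99 and 6.92 in 3d DM. By the mean of the log2 fold over the libraries these 2 loci stood at percentiles 92.7 and 90.6 of all 6055. At both, the GM libraries were above the 3d DM libraries, as at 21.4% of all loci, with log2 differences of 0.43 ± 0.59 and 0.34 ± 0.57 (GM minus 3d DM, SE, limma, adjusted p = 0.999 each).

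The loci of the regulatory subunits stood below these 2, at percentiles from 52.5 for *Virma* and 59.8 for *Wtap* to 78.6 for *Cbll1*. The 5′ and 3′ loci of *Zc3h13* stood at 76.0 and 70.5. At *Cbll1* (chr12:31487169-31488235) the fold was 8.86 and 7.53 in GM against 7.73 and 5.34 in 3d DM. At *Wtap* (chr17:12967214-12980880) it was 7.2 and 5.32 in GM against 5.92 and 4.29 in 3d DM, and at *Virma* (chr4:11507987-11519068) 7 and 4.62 against 5.79 and 3.58. At *Cbll1*, *Wtap* and *Virma* the states overlapped. At *Zc3h13* the differences were below 0, and their direction depended on the choice of line or library. At its 3′ locus (chr14:75323703-75337552) the fold was 6.35 and 4.56 in GM against 8.84 and 6.6 in 3d DM, so that both 3d DM libraries were above both GM libraries, as at 9.05% of all loci, with a log2 difference of -0.51 ± 0.50 (adjusted p = 0.999, limma), or 0.65 with the line of highest fold in place of the lowest p-value. At its 5′ locus (chr14:75321638-75323661) the fold was 9.73 and 3.39 in GM against 8.99 and 7.79 in 3d DM, with a log2 difference of -0.54 ± 0.58, or of 0.22 without GM replicate 2. *Mettl16* (chr11:74817302-74818189) had the weakest peak, with folds of 3.26 and 2.23 in GM against 2.54 and 3.13 in 3d DM, at percentile 12.5. The 5′ locus of *Rbm15b* (chr9:106885935-106886204) had folds of 5.07 and 7.82 in GM against 3.08 and 8.35 in 3d DM, at percentile 60.8. The median log2 difference was 0.31 over the 9 loci and 0.10 over all 6055.

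**Figure D2:**
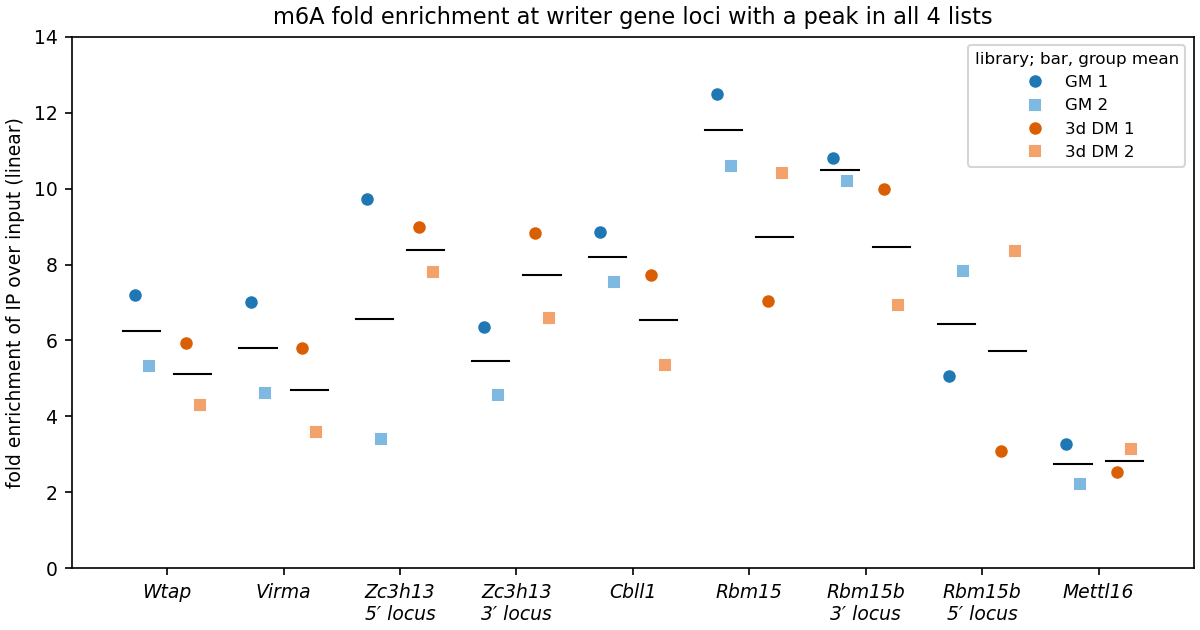
Fold enrichment of IP over input (linear axis) at the 9 writer gene loci with a peak in all 4 lists, 1 point per library and a bar at each group mean (n = 2). The GM points lie above the 3d DM points at *Rbm15* and at the 3′ locus of *Rbm15b*, below them at the 3′ locus of *Zc3h13*, and among them at the other 6 loci.

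Expression of the writers in the input libraries was then compared between the states. The values are the authors' normalised read counts (trimmed mean of M values), tested with limma on log2(value + 1) over all 11406 genes. Fold changes are on that scale as GM minus 3d DM, with the SE of the fit. For the deposited values this SE follows the level of the gene and is not the spread of the gene's own replicates. 0 of 9 writer genes were called at an adjusted p of 0.05, where 17% of all tested genes were, and 1 of 9, *Mettl16*, had an unadjusted p under 0.05, as did 26.2% of all genes. All 9 had a log2 difference above 0, as did 63.2% of all genes, with a median of 0.43 against 0.22 over all genes. Both GM libraries were above both 3d DM libraries in 7 of 9 writers and in 37% of all genes. An entry with no symbol took 24.4% and 33.2% of the column totals in GM and 41.3% and 25.6% in 3d DM, so the values were also rescaled by median-of-ratios factors, which moved the median of all genes to 0.019. On the rescaled values 0 of 9 writers were called, against 23.8% of all genes, and 2 of 9, *Mettl16* and *Rbm15b*, had an unadjusted p under 0.05, as did 38.2% of all genes (limma). There, 8 of 9 differences stayed above 0 and *Zc3h13* turned, and both GM libraries were above both 3d DM libraries in 4 of 9 writers (*Mettl14*, *Wtap*, *Rbm15b* and *Mettl16*) and in 34% of all genes.

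**Figure D3:**
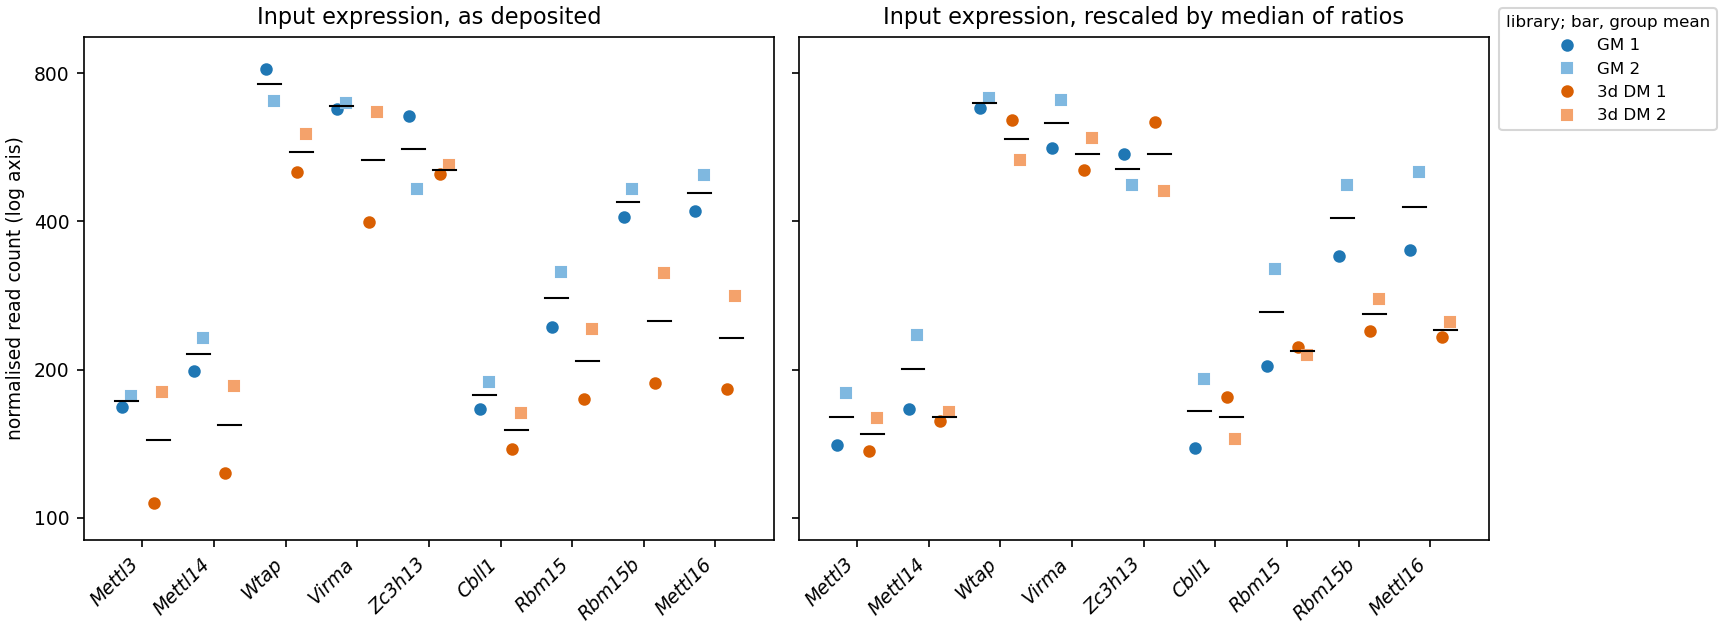
Normalised read count of each writer gene in the 4 input libraries (log axis), as deposited (left) and after median-of-ratios rescaling (right), with a bar at each group mean (n = 2). *Rbm15b* and *Mettl16* are the genes in which the 2 GM points stand farthest above the 2 3d DM points in both panels, while 3d DM replicate 1 is the lowest point of 8 of 9 genes on the left.

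Neither gene of the catalytic pair was called. *Mettl3* (Entrez 56335, chr14:52294841-52308741) had normalised read counts of 168 and 177 in GM against 107 and 180.1 in 3d DM. The states overlapped, since the highest and the lowest value were both 3d DM libraries, and the log2 difference was 0.31 ± 0.49 (adjusted p = 0.775, limma), or 0.11 ± 0.25 when rescaled. Without 3d DM replicate 1 it was -0.064 ± 0.42, so the direction of *Mettl3* rests on that library. *Mettl14* (Entrez 210529, chr3:123368295-123385990) had 199 and 232 in GM against 123 and 185 in 3d DM. Both GM values were above both 3d DM values, with a log2 difference of 0.50 ± 0.48 (adjusted p = 0.578, limma) and of 0.30 ± 0.26 when rescaled.

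None of the 4 regulatory subunits was called, and *Wtap* was the one whose states did not overlap on either scale. *Wtap* (Entrez 60532, chr17:12966799-12992543), the scaffold of the complex, had 816 and 704 in GM against 503 and 603 in 3d DM. The log2 difference was 0.46 ± 0.44 (adjusted p = 0.577, limma), or 0.25 ± 0.19 when rescaled. *Virma* (Entrez 66185, chr4:11485958-11551143), a large scaffold subunit, had 676 and 695 in GM against 399 and 668 in 3d DM. Its log2 difference of 0.41 ± 0.44 (adjusted p = 0.636, limma) was 0.038 ± 0.32 without 3d DM replicate 1. *Zc3h13* (Entrez 67302, chr14:75284306-75344433), which anchors WTAP in the nucleus, had 656 and 467 in GM against 499 and 521 in 3d DM. The 3d DM values lay between the GM values, and the log2 difference was 0.12 ± 0.44 (adjusted p = 0.915, limma) as deposited and -0.088 ± 0.23 when rescaled. *Cbll1* (Entrez 104836, chr12:31484829-31500676), a RING finger protein, had 166 and 189 in GM against 138 and 163 in 3d DM, with a log2 difference of 0.24 ± 0.48 (adjusted p = 0.836, limma) and of 0.030 ± 0.27 when rescaled, where the states overlapped.

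The larger differences were in an adaptor and in the separate enzyme. *Rbm15* (Entrez 229700, chr3:107305511-107334460) had 244 and 316 in GM against 174 and 242 in 3d DM, with a log2 difference of 0.43 ± 0.47 (adjusted p = 0.639, limma). The lower GM value and the higher 3d DM value nearly met, and after rescaling the states overlapped (0.23 ± 0.27). *Rbm15b* (Entrez 109095, chr9:106880928-106887075), its paralogue, had 408 and 467 in GM against 188 and 315 in 3d DM. Both GM libraries were above both 3d DM libraries, and the GM mean of 437 ± 41.6 was 1.74 times the 3d DM mean of 251 ± 90.0 (SD, n = 2). Its log2 difference was 0.84 ± 0.46 (adjusted p = 0.23, limma), at percentile 80.9 of all genes, and 0.64 ± 0.24 when rescaled (adjusted p = 0.103, limma).

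*Mettl16* (Entrez 67493, chr11:74770815-74826855) had the largest difference of the 9. Its normalised read counts were 419 and 497 in GM against 182 and 282 in 3d DM, and the GM mean of 458 ± 54.7 was 1.97 times the 3d DM mean of 232 ± 70.7 (SD, n = 2). The states did not overlap on either scale. Rescaled values were 350.3 and 504 in GM against 233 and 249 in 3d DM, so that the 3d DM libraries drew together and the GM libraries moved apart. The log2 difference was 1.01 ± 0.46 (unadjusted p = 0.0277, adjusted p = 0.124, limma), at percentile 85.4 of all genes, and 0.80 ± 0.24 when rescaled (adjusted p = 0.0572, limma). Leaving out 1 library at a time gave log2 differences from 0.69 to 1.32.

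**Figure D4:**
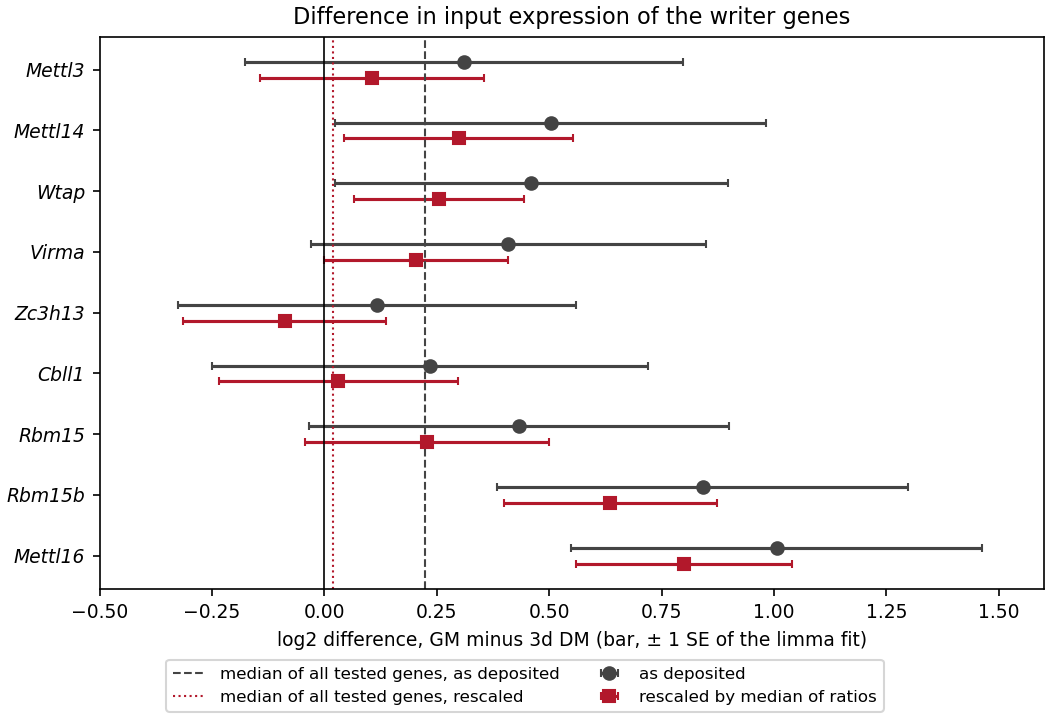
Log2 difference in expression (GM minus 3d DM) of the 9 writer genes with ± 1 SE of the limma fit, for the deposited and the rescaled values, and the median of all tested genes on each scale (vertical lines, 0.22 and 0.019). *Mettl16* and *Rbm15b* lie farthest to the right on both scales, and *Zc3h13* crosses 0 when rescaled.

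Levels were compared between the writers only per length of mRNA, on the rescaled scale and with the length of the same coding transcript. *Wtap* had the highest level in all 4 libraries, with 331 and 347 per kb in GM against 312 and 259 in 3d DM. *Mettl16* was next, with 169 and 243 per kb in GM against 112 and 120.3 in 3d DM. *Virma*, *Zc3h13*, *Mettl3* and *Mettl14* lay close together, between 57.4 and 107 per kb in all libraries, and their order changed from library to library. *Rbm15*, *Rbm15b* and *Cbll1* were the lowest, between 35.6 and 73.8 per kb. The levels of *Mettl14* were 0.87 and 0.97 times those of *Mettl3* in GM and 0.85 and 0.76 times in 3d DM. The length chosen sets much of this order. With the union of all RefSeq exons, which is 5.76 kb for *Mettl3* against 2.02 kb above, *Mettl14* was 2.26 to 2.88 times *Mettl3*. *Mettl16* fell to rank 8 of the 9 in both 3d DM libraries. *Wtap* fell to rank 2 in both, below *Zc3h13* in 3d DM replicate 1 and below *Virma* in 3d DM replicate 2. It kept 2.94 to 4.26 times the level of *Mettl3*. *Wtap* and *Virma* stood above *Mettl3* under both lengths and in all 4 libraries.

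The genes with the profile most like *Mettl3* over the 4 input libraries were named by the Euclidean distance of log2 values centred on each gene's own mean. They were *Prpf19*, *Cpsf1*, *Zbtb21*, *Safb2* and *Rusf1*, at distances from 0.025 to 0.047. *Prpf19*, a splicing factor, had 1661 and 1742 in GM against 1037 and 1776 in 3d DM, with the same drop in 3d DM replicate 1 alone. Among the writers *Virma* was the closest, at a distance of 0.10 and rank 53, and *Mettl16* the farthest, at 0.71. With 4 libraries of 1 scaling, a likeness of this kind is shared with many genes.

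The rest of the m6A pathway was described from fixed lists. Of 8 genes of S-adenosylmethionine supply and turnover, 2 were called, both higher in GM (17% of all genes were called in either direction), and 3 after rescaling (23.8% of all genes). *Ahcy*, which breaks down the S-adenosylhomocysteine left by each methylation, had 1898 and 2502 in GM against 577 and 821 in 3d DM, a log2 difference of 1.66 ± 0.42 (adjusted p = 0.00102, limma). The call was lost without GM replicate 1, without GM replicate 2 or without 3d DM replicate 1 (adjusted p = 0.0597, 0.247 and 0.102, limma), and the lowest difference was 1.41. *Adk*, which removes the adenosine made by that step, had 429 and 466 in GM against 149 and 244 in 3d DM, a log2 difference of 1.22 ± 0.46 (adjusted p = 0.0467, limma), and its call was lost without any 1 of the 4 libraries (adjusted p from 0.0688 to 0.523). Without the filter on low values neither gene was called (adjusted p = 0.293 and 0.379). The third call after rescaling was *Ahcyl1*, a relative of *Ahcy*, with 1818 and 1839 in GM against 784 and 1206 in 3d DM, a log2 difference of 0.91 ± 0.42 as deposited (adjusted p = 0.136, limma) and of 0.70 ± 0.19 when rescaled (adjusted p = 0.0411). *Mat2a*, the known target of METTL16, had 2011 and 2269 in GM against 1762 and 2383 in 3d DM, with overlapping states and a log2 difference of 0.060 ± 0.42 (adjusted p = 0.956, limma), or -0.15 ± 0.22 when rescaled.

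On the deposited values, 17% of all tested genes were called and 26.2% had an unadjusted p under 0.05 (limma). When rescaled, these shares were 23.8% and 38.2%, and the counts below are to be read beside them. Of the 2 erasers, 0 were called on the deposited values and 0 had an unadjusted p under 0.05 (limma). *Fto* had 786 and 593 in GM against 981 and 1399 in 3d DM, so that both 3d DM libraries were above both GM libraries, with a log2 difference of -0.78 ± 0.43 (adjusted p = 0.243, limma). Rescaled, the difference was -0.98 ± 0.17 and passed the threshold (adjusted p = 0.0103, limma). *Alkbh5* had 1181 and 903 in GM against 912 and 1234 in 3d DM, with overlapping states (-0.039 ± 0.43, adjusted p = 0.974, limma). Of 10 readers, 8 were tested and 0 were called, with 3 at an unadjusted p under 0.05. After rescaling 1 was called, *Igf2bp2*, which binds methylated mRNA and was higher in GM by 0.82 ± 0.22 on the log2 scale (adjusted p = 0.0403, limma). Of the 5 genes of other N6-methyltransferases, among them *Mettl5* and *Zcchc4*, which modify ribosomal RNA, 0 were called on either scale, with 0 at an unadjusted p under 0.05 as deposited and 1 when rescaled (limma). Of the 6 other METTL family genes 0 were called on either scale, and 0 had an unadjusted p under 0.05 (limma). The median log2 differences of these last 2 lists were 0.54 and 0.52 as deposited and 0.34 and 0.32 when rescaled, beside 0.22 and 0.019 over all genes.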

How the data were processed

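MeRIP-seq and RNA-seq of GM and 3d DM cells (2 IP and 2 input libraries per state) were taken from the deposited files. For the deposited files, the authors mapped reads with HISAT2 (version 2.1.0) to the mm10 build and ran exomePeak on each IP library against its input. Each deposited peak list gives a p-value and a fold (ratio of IP over input) per peak and transcript. The deposited expression table holds a normalised signal (trimmed mean of M values) that the authors made with edgeR; its columns share 1 total, whole reads could not be recovered from it, and the depth is unknown. The number of replicates therefore sets the precision. Under limma the standard errors of the deposited values followed the intensity trend, and a gene's own replicates did not set them. Without the trend, the same fit gave each writer gene a standard error of 0.469. A gene was tested if 2 or more of the 4 libraries reached 2 cpm of their column total, with limma (3.58.1, R 4.3.3) on log2(value + 1). Peak lines of a gene sharing at least 1 bp were merged, and a locus took the fold of its line with the lowest p-value. Entrez identifiers were named from the RefSeq table of GRCm38.p6, and transcripts came from GENCODE M21. Scripts were tested on simulated data. Python 3.11.15 and pandas 2.3.3 were used.

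The members and lists were chosen with earlier results of these data known. All members are named. From the pathway lists, genes past the threshold were named, with *Mat2a*, *Fto* and *Alkbh5*. For *Mettl3* the 5 nearest profiles were named. Named loci were those with the lowest p-value in most libraries and any called or present in both libraries of 1 state. The other loci, *Myod1*, *Myf5*, *Pax7*, *Cd34*, *Des*, *Igf2bp2*, *Ahcyl1*, *Mettl5* and *Zcchc4* were named after their values were seen. Alternatives were other filters, pseudocounts of 0.1 and 4, median-of-ratios rescaling, no trend, the replicate number as a block, stricter peaks (p at most 1e-05, fold at least 4), other overlaps and units, the highest-fold line, median centring and each library left out. Rescaling with the block was added after seeing the data. No sample was left out.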

Additional observations from a re-analysis of the deposited data

How the results depend on the processing

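With 2 libraries per state and an unknown depth, differences of the size seen here are below what the tests call reliably. The count of writers called in expression was 0 as deposited and 0 under each of the other filters, pseudocounts, scalings, fits and left-out libraries run alone. With median-of-ratios rescaling and the replicate block together, an alternative chosen after seeing the data, 2 were called, *Mettl16* (adjusted p = 0.0267, limma) and *Rbm15b* (adjusted p = 0.0489). Over those alternatives the adjusted p of *Mettl16* ranged from 0.0572 to 0.73 and that of *Rbm15b* from 0.103 to 0.811. The replicate block on the deposited values called 0 writers and 1298 of all genes, against 1936 without it and 3514 with the rescaling. The replicate differences of the states correlated with r = 0.29 over genes and 0.13 over loci, and the labels give no shared batch, so with 2 pairs the samples share only a number. The block called 0 of 9 loci too. Without 1 library at a time, 1252, 874, 145 and 676 genes were called over all genes (GM 1, GM 2, 3d DM 1 and 3d DM 2 left out). Without a filter 154 were called, with a filter on 3 libraries 1436, and 2718 after rescaling. The log2 difference of *Mettl3* ranged from -0.064 to 0.68 without 1 library, and that of *Zc3h13* from -0.13 to 0.36, with -0.088 after rescaling with or without the block. *Mat2a* was at -0.15 after rescaling, with or without the block, and from -0.16 to 0.28 without 1 library, and *Alkbh5* ranged from -0.26 to 0.18. The GM minus 3d DM difference in distinct peaks, 0.5, was 4 with p at most 1e-05, 4 in deposited lines, -1 where lines had to share 0.5 of the shorter one, and from -1 to 2 without 1 library. Under p at most 1e-05 the sums were 14 and 12 against 14 and 4. 0 of 9 loci were called under every alternative run. With the highest-fold line, *Wtap* turned to -0.66 and the 3′ locus of *Zc3h13* to 0.65. Without 1 library, the log2 difference in fold enrichment ranged across 0 at *Mettl16* (-0.34 to 0.21), at the 5′ locus of *Rbm15b* (-0.41 to 1.03), at *Virma* (-0.026 to 0.67) and at the 5′ locus of *Zc3h13* (-1.30 to 0.22). The call of *Adk* was also lost with the stricter filter, without the trend and with the block (adjusted p = 0.0551, 0.0516 and 0.191). The cause was not tested.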
